A study of Mus musculus with 2 samples.

Results

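Antigen presentation was described through 30 genes of the MHC class I and class II pathways, of 32285 genes in the deposited tables, in single cells of mouse prostate. The genes were taken by symbol from a fixed list, 17 for class I and 13 for class II, and all 30 were in both tables. The study holds 2 libraries of 10x Genomics 3′ v2 chemistry, 1 of prostate tumour and 1 of normal tissue adjacent to tumour, whose title calls it healthy. Both tissues were digested with collagenase I at 1 mg/ml for 45 minutes and then with trypsin, and a flow sort took CD45+ as well as CD45- cells, which went onto 1 channel for each tissue. The labels used here give no strain, genotype, tumour model, age or number of animals, and do not say whether both libraries came from 1 animal. With 1 library for each tissue there is no replicate check: each ratio of tumour to normal adjacent tissue compares these libraries, and its 95% interval covers counting error only.

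MHC class I molecules show peptides made inside a cell to CD8 T cells. A heavy chain pairs with beta-2 microglobulin (B2m) and is loaded in the endoplasmic reticulum with peptides that proteasomes cut and the TAP transporter carries in, and Nlrc5 encodes the transcriptional activator of these genes. MHC class II molecules show peptides of material taken up from outside to CD4 T cells: alpha and beta chains assemble with the invariant chain Cd74, cathepsin S (Ctss) degrades that chain in endosomes, and H2-DM exchanges its last fragment for peptide while H2-DO restrains H2-DM. Ciita encodes the activator that switches class II genes on in dendritic cells, macrophages and B cells.

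The promoters were searched for forms of 4 known regulatory elements. A RefSeq table on build GRCm38.p6 gave 300 bases, 250 before to 50 after the annotated start, for 25 of the 30 genes, with no entry for Tap2, Nlrc5, H2-Ab1, Cd74 and Ciita. The 200 bases before the start are printed for 3 class II genes, a class I heavy chain and B2m, because they hold the matches counted next. Capitals mark the letters searched on both strands: GATTGG (the core of the Y box, bound by NF-Y), which appears as CCAATC where it lies on the other strand, GCAAC, any base, GATG (a form of the X box, bound by the RFX complex), GGGGA, any base, TCCCC (a form of enhancer A, an NF-kappaB site) and GAAA, any 2 bases, GAAA (a form of the interferon response element).
H2-Aa, chr17:34287824-34288023, minus strand: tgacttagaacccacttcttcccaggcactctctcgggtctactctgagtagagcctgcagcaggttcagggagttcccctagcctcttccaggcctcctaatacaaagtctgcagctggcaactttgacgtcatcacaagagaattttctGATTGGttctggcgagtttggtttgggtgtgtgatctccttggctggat
H2-Eb1, chr17:34305667-34305866, plus strand: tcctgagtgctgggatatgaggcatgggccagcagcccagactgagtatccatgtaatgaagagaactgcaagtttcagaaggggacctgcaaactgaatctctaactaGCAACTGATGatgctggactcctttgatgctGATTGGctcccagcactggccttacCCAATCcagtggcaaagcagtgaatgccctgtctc
H2-DMb1, chr17:34152991-34153190, plus strand: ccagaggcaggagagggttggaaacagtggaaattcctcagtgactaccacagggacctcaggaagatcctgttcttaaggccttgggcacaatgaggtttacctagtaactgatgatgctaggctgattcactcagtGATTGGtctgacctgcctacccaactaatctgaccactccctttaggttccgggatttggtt
H2-D1, chr17:35262894-35263093, plus strand: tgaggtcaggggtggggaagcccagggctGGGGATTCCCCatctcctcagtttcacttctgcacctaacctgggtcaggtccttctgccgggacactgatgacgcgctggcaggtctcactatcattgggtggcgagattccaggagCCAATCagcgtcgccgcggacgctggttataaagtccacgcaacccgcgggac
B2m, chr2:122147487-122147686, plus strand: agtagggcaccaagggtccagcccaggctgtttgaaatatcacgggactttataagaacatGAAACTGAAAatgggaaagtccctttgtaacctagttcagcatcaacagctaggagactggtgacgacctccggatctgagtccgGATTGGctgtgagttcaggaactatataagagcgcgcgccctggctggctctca
GATTGG was present in a window of 18 of the 25 genes, against 16.1% of 32851 mouse promoter entries of the same length. A gene such as H2-K1 can have more than 1 entry, so a share of genes stands beside a share of entries. Psmb9 and Tap1, both among the 18, have overlapping windows, and their matches may be 1 site. All 8 class II H2 genes with an entry held GATTGG, as did 8 of 9 genes for class I heavy chains and B2m. The enhancer A form was present in 3 genes, H2-K1, H2-D1 and H2-Q6, against 0.0487% of all promoter entries. The X box form was present in 2 genes, H2-Eb1 and H2-Eb2, against 0.192%. The interferon response form was present in 5 genes, B2m, H2-T22, H2-T23, Erap1 and Ctss, against 3.44%. The enhancer A match began 171 bases before the start in H2-D1 and 173 bases before it in H2-Q6. Matches in such related genes may not be separate occurrences. A match describes letters only; 15 motifs were searched and 4 of them were kept after their matches had been seen.

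Cells were assigned to classes by markers that include none of the 30 genes. The normal adjacent library held 6553 barcodes and the tumour library 8237, with 77855775 and 92188538 UMIs, medians of 6017 and 6015 UMIs per barcode and 16 barcodes in common. After filters 6209 and 7768 cells remained, and 45.9% and 45.6% of them entered no class because they met no gate or carried markers of another lineage. The dendritic classes were type 1 conventional cells (cDC1; 48 and 96 cells in the normal adjacent and tumour library), type 2 conventional cells (cDC2; 92 and 112), migratory cells marked by Ccr7 and Fscn1 (migratory DCs; 86 and 119) and plasmacytoid cells (pDCs; 16 and 13, too few for a ratio). The others were macrophages (496 and 769), monocytes (52 and 67), B cells (280 and 171), T cells (1456 and 1482), NK cells (95 and 67), neutrophils (451 and 867), epithelium (176 and 276) and fibroblasts (108 and 189). Some genes that no gate used went with the labels. Csf1r stood at 616 and 635 CPM in macrophages and 8.65 and 19.8 CPM in migratory DCs, and Krt15 at 3139.8 and 3566 CPM in epithelium. Ptprc, which encodes CD45, stood at 20.2 and 13.3 CPM in epithelium and 785 and 797 CPM in T cells. Others were not particular to 1 class. Irf8 stood at 625 and 672 CPM in cDC1, 859 and 798 CPM in migratory DCs and 1804 and 1609 CPM in NK cells. Irf4 stood at 45.4 and 81.8 CPM in cDC2 and 56.2 and 105 CPM in B cells. CPM is the UMIs of a gene per 1000000 UMIs of all cells of the class in that library, and paired values are given in the order normal adjacent, tumour.

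Class II transcripts separated the cell classes widely, in nearly the same order in both libraries. The 13 class II genes together made up 87918 and 78993 CPM in macrophages, 82954 and 89282 CPM in cDC2, 66073 and 67428 CPM in cDC1 and 50663 and 52799 CPM in migratory DCs. B cells stood at 41039 and 32611 CPM, monocytes at 32535 and 32355 CPM and pDCs at 30157 and 16464 CPM. Below them lay T cells at 6473 and 5742 CPM, NK cells at 6733 and 1954 CPM, neutrophils at 4421 and 4175 CPM, fibroblasts at 1797 and 2717 CPM and epithelium at 1664 and 984 CPM. The median of the 5 main presenting classes (cDC1, cDC2, migratory DCs, macrophages and B cells) was 14.9 times the median of the 5 low classes in the normal adjacent and 24.8 times in the tumour library. Under stricter gates these were 39.4 and 34.3 times, so that the order of the libraries turned. Macrophages were highest in the normal adjacent library and cDC2 in the tumour library, and epithelium was lowest in both. In bulk sums of a class, fewer expressing cells and less RNA per cell cannot be told apart.

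**Figure D1:**
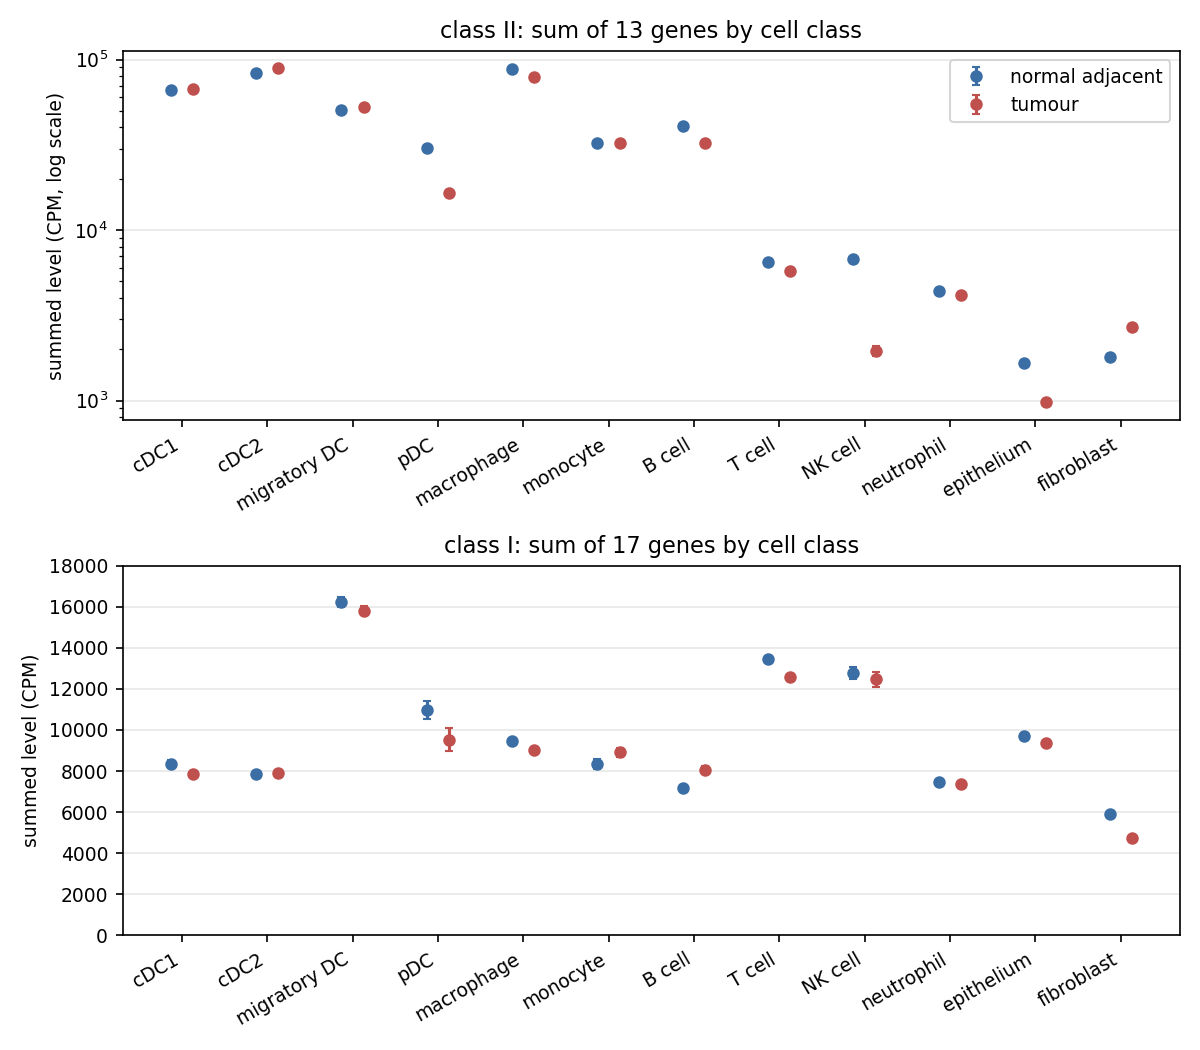
Summed level of the 13 class II genes (top, log scale) and the 17 class I genes (bottom, linear scale from 0) in CPM, by cell class, in the normal adjacent (blue) and tumour (red) library; bars are exact Poisson 95% intervals. Class II levels run from 87918 CPM in normal adjacent macrophages and 89282 CPM in tumour cDC2 down to 984 CPM in tumour epithelium, while class I levels stay between 4738 and 16231 CPM.

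H2-Aa, the I-A alpha chain, was highest in cDC2 at 15971 and 17306 CPM, followed by macrophages at 14791 and 14034 CPM and cDC1 at 13156 and 13584 CPM. Migratory DCs had 10505 and 10869.6 CPM of H2-Aa and B cells 7336 and 6134 CPM. H2-Ab1, the I-A beta chain, was highest in macrophages in the normal adjacent library (11817 CPM, against 11552 CPM in cDC2) and in cDC2 in the tumour library (13987 CPM, against 11558 CPM in macrophages). H2-Eb1, the I-E beta chain, changed places in the same way, with 13272 and 12199 CPM in macrophages and 11817 and 13605 CPM in cDC2. Cd74 did so too, with 41254 and 34598 CPM in macrophages and 36803 and 37261 CPM in cDC2. Migratory DCs held less of each of these 4 than cDC2, with the lowest ratio for H2-Ab1: 0.471 times (0.457 to 0.485) the cDC2 level in the normal adjacent and 0.485 times (0.473 to 0.497) in the tumour library. H2-Aa in migratory DCs had 0.658 and 0.628 times its cDC2 level.

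H2-Eb2, a further I-E beta gene, was distributed unlike the other chains. It was highest in migratory DCs at 183 and 202 CPM, followed by B cells at 67.7 and 63.6 CPM. In cDC2 it stood at 9.24 and 19.1 CPM and in macrophages at 5.02 and 6.19 CPM. The migratory DC level was 19.8 times (11.1 to 39.0) that of cDC2 in the normal adjacent and 10.6 times (7.19 to 16.2) in the tumour library, the reverse of the order of H2-Ab1.

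The peptide exchange genes divided the dendritic classes. H2-DMa, the alpha subunit of H2-DM, was highest in cDC2 in the normal adjacent library and in cDC1 in the tumour library, with 1065 and 1088 CPM and 987 and 1119 CPM respectively, and stood at 259.5 and 289.8 CPM in migratory DCs. H2-DMb1, a beta subunit, was highest in cDC1 at 1126 and 994 CPM and went from 1043 and 986 CPM in cDC2 to 160.0 and 226 CPM in migratory DCs. Between cDC2 and cDC1 neither gene differed beyond its counting interval. For H2-DMa the cDC2 level was 1.08 (0.993 to 1.17) and 0.972 (0.909 to 1.04) times that of cDC1. For H2-DMb1 it was 0.927 (0.856 to 1.003) and 0.992 (0.924 to 1.06) times. The migratory DC level of H2-DMa was 0.244 times (0.214 to 0.276) that of cDC2 in the normal adjacent and 0.266 times (0.239 to 0.297) in the tumour library. H2-DMb2, the other beta gene, was highest in B cells at 549.8 and 452 CPM, and it differed less between cDC2 (371 and 435 CPM) and migratory DCs (269 and 299 CPM).

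H2-DO, whose subunits are encoded by H2-Oa and H2-Ob, was low in macrophages. H2-Ob was highest in B cells at 316 and 254 CPM, followed by cDC1 at 162 and 157 CPM, and stood at 30.5 and 33.8 CPM in macrophages. H2-Oa was highest in cDC2 at 274 and 311 CPM and stood at 56.4 and 48.9 CPM in macrophages. B cells held 10.4 times (8.67 to 12.5) the H2-Ob level of macrophages in the normal adjacent and 7.51 times (6.38 to 8.84) in the tumour library. For H2-DMb2 these values were 11.4 and 8.65 times, while the class II total of B cells was 0.467 and 0.413 times that of macrophages.

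Endosomal processing genes followed another order. Ctss was highest in macrophages at 4189 and 4135 CPM, followed by monocytes at 1657 and 1913 CPM, and stood at 522 and 573 CPM in cDC1. Ifi30, a lysosomal thiol reductase that opens disulfide bonds of antigens, was highest in migratory DCs at 2471 and 2631 CPM, close to cDC2 at 2356 and 2428 CPM, and stood at 842 and 772 CPM in cDC1. cDC2 thus held 2.80 times (2.59 to 3.02) the Ifi30 level of cDC1 in the normal adjacent and 3.14 times (2.95 to 3.35) in the tumour library, and 2.96 and 2.84 times its Ctss level. Ciita was scarce, with its highest levels in cDC2 at 50.1 and 97.4 CPM and macrophages at 43.4 and 56.6 CPM.

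**Figure D2:**
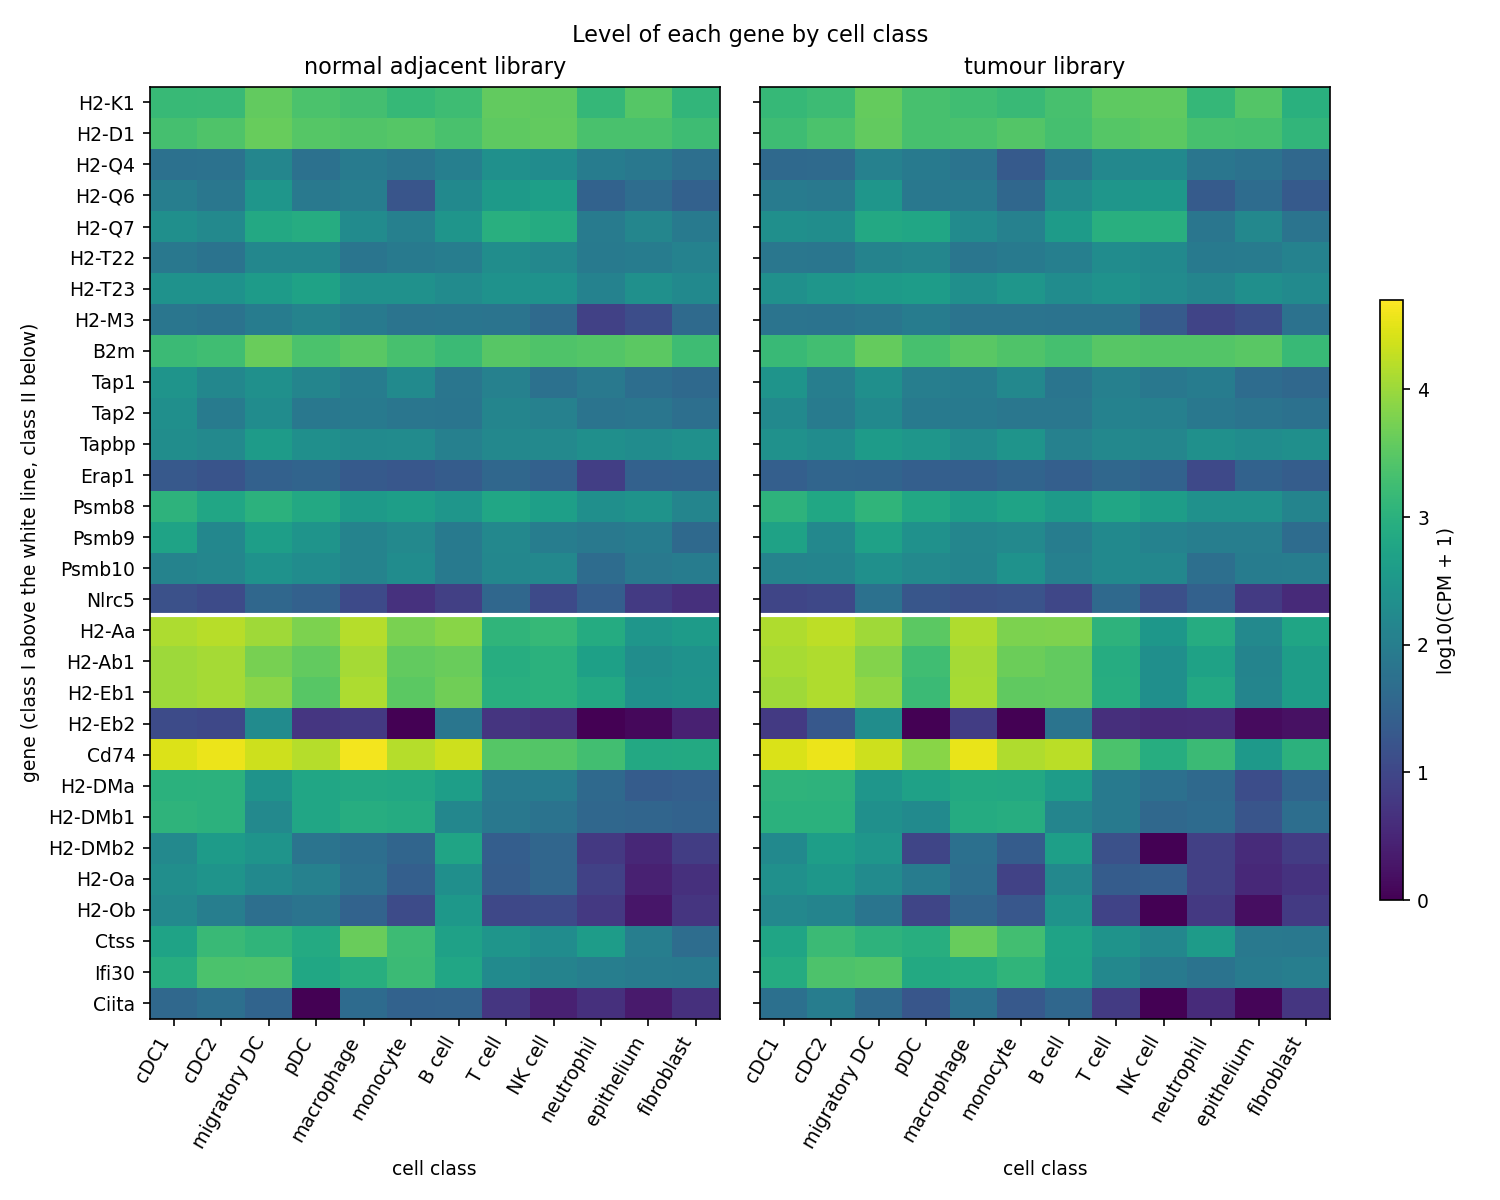
Level of each of the 30 genes, as log10(CPM + 1), in the 12 cell classes of the normal adjacent (left) and tumour (right) library, with class I genes above the white line and class II genes below it. Cd74 and the classical class II chains are bright in dendritic cells, macrophages, monocytes and B cells, H2-Eb2 stands out in migratory DCs and B cells, and H2-K1, H2-D1 and B2m are bright in every column.

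Single cells of a class differed most in migratory DCs and monocytes among the presenting classes. The summed level of Cd74, H2-Aa, H2-Ab1 and H2-Eb1 in a migratory DC had a 10th percentile of 5712 CPM, a median of 29724 CPM and a 90th percentile of 99275 CPM in the normal adjacent library, and 5249, 37638 and 101096 CPM in the tumour library. In monocytes the 10th and 90th percentiles were 1248 and 63621 CPM in the normal adjacent and 1293 and 68736 CPM in the tumour library. In cDC1 they were 44050 and 79668 CPM, and 47158 and 82290 CPM, a much narrower range.

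Across migratory DCs the class II total ran against the summed level of Ccr7, Fscn1, Cacnb3 and Socs2, genes of dendritic cell maturation that were also used to choose these cells: Spearman's rho was −0.43 in the normal adjacent and −0.44 in the tumour library, over 86 and 119 cells. The class I total ran the other way, with a rho of 0.41 in the normal adjacent and 0.53 in the tumour library. Across macrophages the class II total ran with the C1q genes, also used to choose these cells, at 0.40 in the normal adjacent and 0.31 in the tumour library. Across monocytes, whose gate kept out cells high in cDC2 markers, the class II total ran with those markers. The values were 0.53 in the normal adjacent and 0.33 in the tumour library. These are 4 of 11 such relations computed in each library, and they are descriptions: the cells share a library, and both measures of a cell share its total UMIs.

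**Figure D3:**
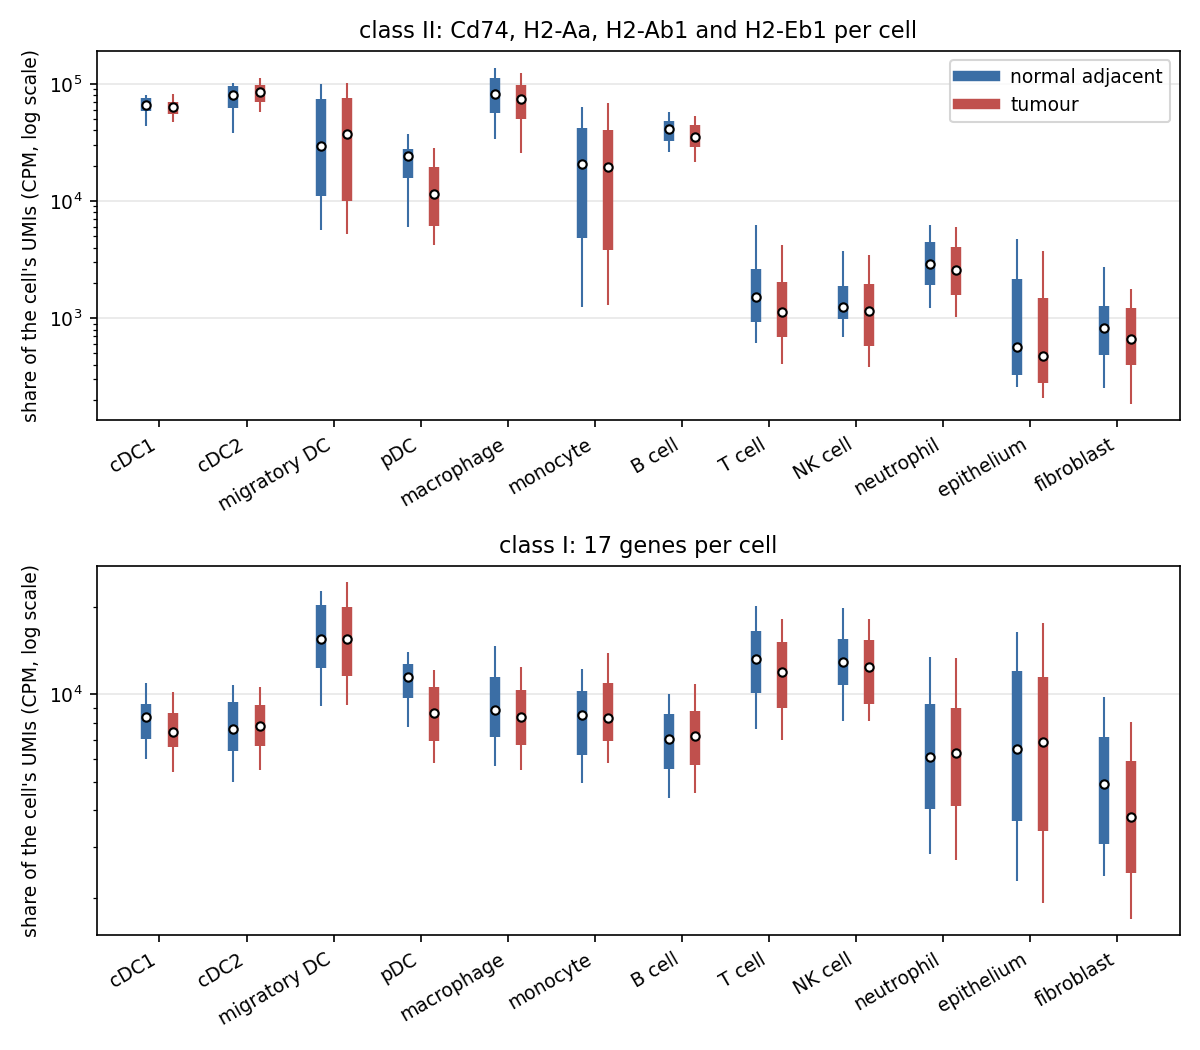
Share of each cell's UMIs (CPM, log scale) held by Cd74, H2-Aa, H2-Ab1 and H2-Eb1 (top) and by the 17 class I genes (bottom), by cell class in the normal adjacent (blue) and tumour (red) library. Thin lines run from the 10th to the 90th percentile of cells, thick bars from the 25th to the 75th, and white points are medians; migratory DCs span 5712 to 99275 CPM of class II in the normal adjacent library, and cDC1 44050 to 79668 CPM.

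In T cells, NK cells, neutrophils, epithelium and fibroblasts part of the class II UMIs lay in a small share of the cells. Cells with 10000 CPM or more of class II genes, a level chosen after the values were seen, numbered 82 and 73 among T cells and held 71.6% and 73.1% of the T cell class II UMIs. Epithelium had 6 and 6 such cells with 57.4% and 22.2% of its class II UMIs, and fibroblasts 3 and 5 with 45.2% and 69.6%. NK cells had 3 and 3 with 79.3% and 31.6%, and 1 normal adjacent NK cell alone held 45.6%. Neutrophils had 19 and 31 with 25.7% and 23.7%. By comparison 99.4% and 97.1% of macrophages and 100% and 97.1% of B cells exceeded this level. Lyz2, a myeloid gene, stood at 139 and 947 CPM in NK cells and 611 and 413 CPM in T cells. Its levels were 160 and 65.8 CPM in epithelium, 60.1 and 196 CPM in fibroblasts and 1230 and 1465 CPM in neutrophils. No doublet caller was run, and the source of the class II UMIs in these cells was not tested.

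With every cell thinned to 1000 UMIs and shallower cells left out, an H2-Aa UMI was found in 33.6% (31.2 to 36.2%) of 1430 normal adjacent T cells and 29.7% (27.4 to 32.1%) of 1477 tumour T cells, with exact Clopper-Pearson intervals. Neutrophils, a class that should lack it, had 47.5% and 46.4%, fibroblasts 19.6% and 22.7% and epithelium 20% and 16.8%. The T cell share lay below that of neutrophils and above those of fibroblasts and epithelium, and its source was not tested. Median depths were 5884 and 5170.5 UMIs in T cells and 2882 and 2266 UMIs in neutrophils. Unthinned, 82.1% and 72.9% of T cells had an H2-Aa UMI. Macrophages had thinned shares of 99.4% and 97.4%, migratory DCs 89.5% and 90.7% and monocytes 65.4% and 74.6%.

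Class I transcripts varied far less. The 17 genes summed to 16231 and 15808 CPM in migratory DCs, 13447 and 12577 CPM in T cells, 12771 and 12459 CPM in NK cells and 9701 and 9369.5 CPM in epithelium. Macrophages had 9439.8 and 9014 CPM, cDC1 8361 and 7849 CPM, monocytes 8342 and 8908 CPM, cDC2 7871 and 7929 CPM, neutrophils 7444 and 7392 CPM and B cells 7198 and 8075 CPM. Fibroblasts were lowest at 5886 and 4738 CPM, and pDCs had 10953 and 9516 CPM. The highest of the 11 compared classes held 2.76 times the lowest in the normal adjacent and 3.34 times in the tumour library. In the normal adjacent library cDC1 and monocytes did not differ beyond their counting intervals. Migratory DCs held 2.06 times (2.01 to 2.11) the class I total of cDC2 in the normal adjacent and 1.99 times (1.95 to 2.04) in the tumour library, and 0.611 and 0.591 times its class II total.

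The classical heavy chains H2-K1 and H2-D1 and their partner B2m were all highest in migratory DCs. H2-K1 stood there at 3675 and 3833 CPM, in T cells at 3664 and 3403 CPM, in epithelium at 2904 and 2799 CPM and in fibroblasts at 1256 and 965 CPM. H2-D1 stood at 4039 and 3738 CPM in migratory DCs, 3703 and 3237 CPM in NK cells and 1745 and 1236 CPM in fibroblasts. B2m stood at 4186 and 3855 CPM in migratory DCs and 3231 and 3181 CPM in epithelium, and at 1585 and 1532 CPM in cDC1. Epithelium had the most H2-K1 UMIs for each H2-D1 UMI, 1.32 and 1.37, and monocytes the fewest, 0.497 and 0.554.

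Among nonclassical heavy chains, 4 were highest in T or NK cells. H2-Q7 was highest in T cells at 911 and 938 CPM, with 793 and 920.1 CPM in NK cells and 186 and 183 CPM in macrophages. H2-Q6 was highest in NK cells at 440.2 and 323 CPM, and H2-T22 in T cells at 204 and 193 CPM. H2-Q4 was highest in T cells in the normal adjacent library (225 CPM) and in NK cells in the tumour library (169.7 CPM). Among compared classes H2-T23, which encodes Qa-1, was highest in migratory DCs at 374 and 359 CPM, below pDCs at 513 and 387 CPM. H2-M3, which presents formylated peptides, was also highest there among compared classes, at 92.6 and 69.7 CPM. Of 90-base windows in the last 400 bases of their transcripts, where this assay reads, 32.2% of H2-Q6, 33.5% of H2-T22, 16.1% of H2-T23 and 12.5% of H2-Q4 also occur in another gene's transcript. The levels of these 4 genes are therefore uncertain. The share was 0.177% for H2-K1 and 0 for H2-D1, H2-Q7 and B2m.

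Peptide supply genes were highest in cDC1 and migratory DCs for the most part. Tap1, a subunit of the peptide transporter, stood at 271 and 275 CPM in cDC1, 228 and 223 CPM in migratory DCs and 149 and 102 CPM in cDC2. Tap2, its partner, was highest in cDC1 at 222 and 171 CPM. Tapbp, which encodes tapasin of the loading complex, was highest in migratory DCs at 381 and 373 CPM. Psmb9, an immunoproteasome subunit, stood at 525 and 519 CPM in cDC1 and 146 and 156 CPM in cDC2, which held 0.279 times (0.235 to 0.330) the cDC1 level in the normal adjacent and 0.300 times (0.259 to 0.348) in the tumour library. The subunit gene Psmb8 was highest in cDC1 in the normal adjacent library (1072 CPM, against 1063 CPM in migratory DCs). In the tumour library it was highest in migratory DCs (1181 CPM, against 1087 CPM in cDC1). Psmb10 was highest in migratory DCs (243 CPM) and in monocytes (247 CPM), in that order of libraries. Nlrc5 was highest in migratory DCs at 36.3 and 56.7 CPM, followed by T cells at 36.1 and 39.7 CPM. Erap1, a peptidase that trims peptides, was highest in T cells at 35.5 and 36.9 CPM. cDC1 held more Tap1, Psmb8 and Psmb9 than cDC2 but no more H2-K1, at 1482 and 1386 CPM against 1504 and 1667 CPM.

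Genes outside the 30 with the most similar pattern were ranked by Pearson correlation of log2(CPM + 1) over 22 points, 11 classes in each of 2 libraries, among 6119 genes with at least 50 CPM in some class. For the class II total these were Cd83 (r = 0.981), a surface protein of mature presenting cells, Cd86 (0.966), a costimulatory ligand, and Plekho1, Pld4, Cd180, Ly86, Gm6377, Prcp, Rassf4 and Rnase6 (0.936). For the class I total those reported here were Epb41 (r = 0.893), Rnaset2a, B4galnt1, Slc25a3, Ccl5, Tapbpl, AW112010, Rnf115 and Zfand6 (0.833). The points share libraries and depth, so these correlations are descriptions.

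Between the tissues most of the 30 genes stood at similar levels. A gene was compared in a class where it had at least 100 UMIs over both libraries, and was counted as higher in the tumour library where its CPM was at least 25% above that of the normal adjacent library, and as lower where the ratio was at most 0.8, the inverse fold. Class I gave 162 comparisons over 11 classes, of which 9 were higher (5.56%) and 18 lower (11.1%), where all genes in these classes gave 10.8% higher and 8.85% lower. Class II gave 109 comparisons, of which 12 were higher (11%) and 18 lower (16.5%). NK cells, epithelium and fibroblasts held 19 of these 30 class II calls, out of 21 comparisons; these 3 classes are singled out for their calls. The counting interval left out 1 for 21 of the 27 class I calls and 26 of the 30 class II calls.

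**Figure D4:**
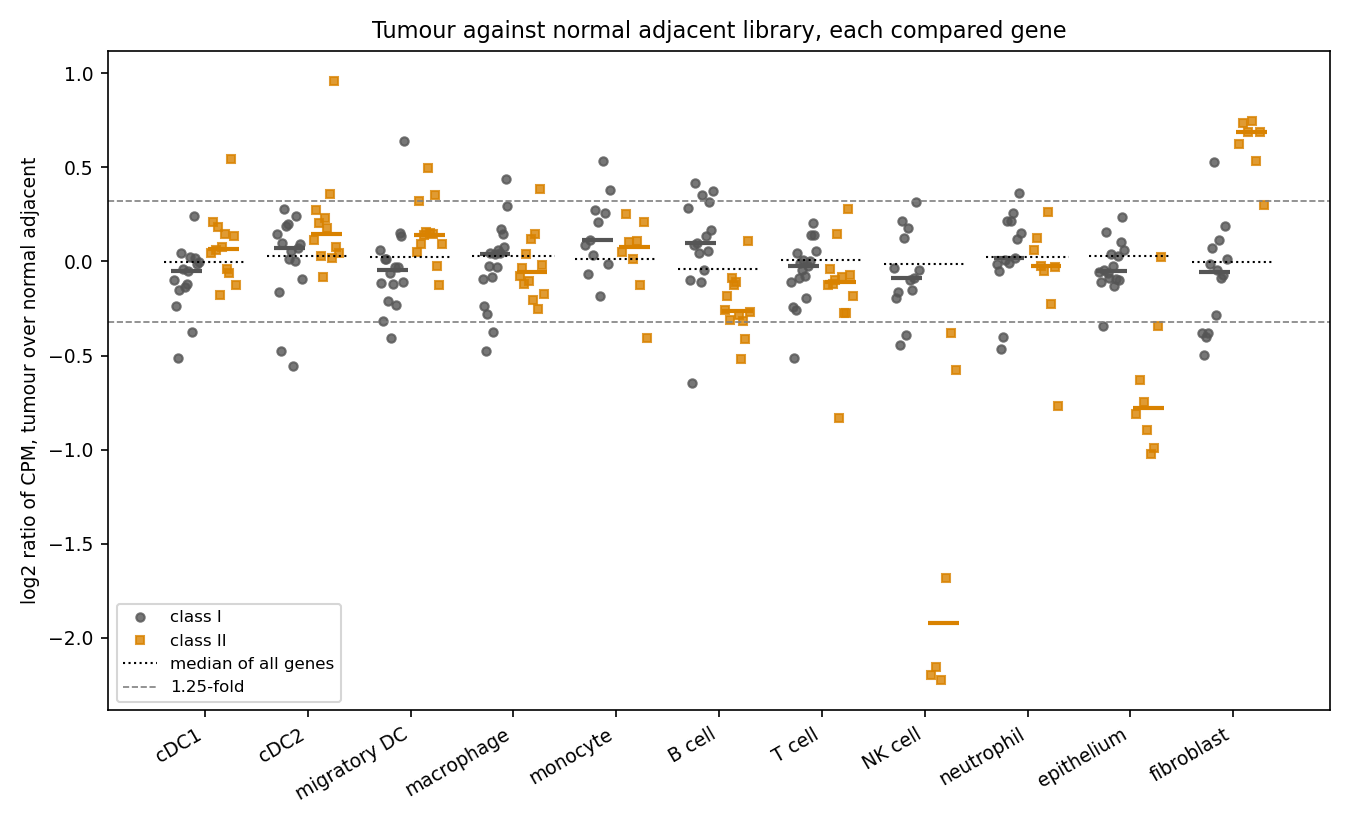
Log2 ratio of CPM, tumour over normal adjacent, of each compared class I gene (grey circles) and class II gene (orange squares) in 11 cell classes. Short bars are medians of the genes, dotted lines the median of all genes of the class and dashed lines the fold limits; class II genes lie low in NK cells and epithelium and high in fibroblasts.

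The class II differences in NK cells, epithelium and fibroblasts changed in size with the cells and settings used. In NK cells the summed class II ratio was 0.290 (0.268 to 0.314), with 6 of 6 compared genes lower, where all genes gave 10.9% higher and 14.2% lower. H2-Aa went there from 1423 to 310.2 CPM (ratio 0.218, 0.178 to 0.265), and H2-Ab1, H2-Eb1 and Cd74 were lower likewise. In epithelium the ratio was 0.592 (0.571 to 0.613), with 7 of 8 genes lower against 11.8% higher and 7.05% lower of all genes, among them Cd74, from 694 to 349 CPM (0.503, 0.475 to 0.533), H2-Aa, H2-Eb1 and H2-DMb1. In fibroblasts the ratio was 1.51 (1.43 to 1.59), with 6 of 7 genes higher against 12% higher and 11.7% lower of all genes, among them H2-Ab1, from 251 to 418 CPM (1.67, 1.45 to 1.92), H2-Aa, H2-Eb1 and Cd74. Without the cells at 10000 CPM or more the summed levels were 1611 and 1406 CPM in NK cells, 741 and 769 CPM in epithelium and 1019 and 873 CPM in fibroblasts. The ratios were then 0.873, 1.04 and 0.857, so that the direction in epithelium and fibroblasts turned. These cells were set aside by the level being compared. Under stricter gates the ratios were 0.829 in NK cells, 0.425 in epithelium and 3.59 in fibroblasts, and the median of per-cell levels in fibroblasts gave 0.819, with the direction turned.

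B cells had a lower class II total and, at the main setting, a somewhat higher class I total in the tumour library. Their class II total had a ratio of 0.795 (0.785 to 0.805), past the limit of 0.8, and of 0.906 under stricter gates, 0.873 thinned, 0.884 by the median of per-cell levels, 0.818 scaled by the median gene ratio and 0.812 with own markers raised by 25%, none of them past it. Cd74 went from 22001 to 16519 CPM (ratio 0.751, 0.738 to 0.764) and H2-Oa from 221 to 154 CPM (0.697, 0.579 to 0.837). These were the 2 class II genes past the fold of 12 compared (16.7%), where all B cell genes gave 11.1% higher and 14.7% lower. Of class I genes B2m went from 1601 to 2042 CPM (1.28, 1.21 to 1.35), H2-Q7 from 279.5 to 373 CPM (1.33, 1.17 to 1.52) and Psmb10 from 84.9 to 110.2 CPM (1.30, 1.01 to 1.66), while H2-Q4 was lower. Of 15 class I genes compared, 3 were higher (20%) and 1 lower (6.67%). The class I total had a ratio of 1.12 (1.09 to 1.15), and of 0.999 under stricter gates, 1.04 thinned and 1.03 by the median of per-cell levels. Ighm, the IgM heavy chain, stood at 2919 and 15446 CPM in these B cells; its part in the result was not tested.

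Ciita was higher in the tumour library in cDC2, cDC1 and macrophages. In cDC2 it went from 50.1 to 97.4 CPM (ratio 1.95, 1.44 to 2.65), in macrophages from 43.4 to 56.6 CPM (1.30, 1.11 to 1.53) and in cDC1 from 37.3 to 54.3 CPM (1.46, 0.990 to 2.19), where the interval includes 1. The class II totals of these classes had ratios of 1.08 (1.07 to 1.09), 0.898 (0.895 to 0.902) and 1.02 (1.01 to 1.03). In cDC2, where all genes gave 13.3% higher and 8.24% lower, H2-Ob had a ratio of 1.28 (1.02 to 1.62), Tap1 0.679 (0.545 to 0.845) and H2-Q4 0.719 (0.505 to 1.02). In cDC1, with 12.8% higher and 11.1% lower, Tap2 had 0.772 (0.647 to 0.923) and H2-Q4 0.700 (0.485 to 1.02). In macrophages, with 9.02% higher and 6.28% lower, H2-M3 had 0.773 (0.681 to 0.877), Nlrc5 1.35 (0.977 to 1.90) and H2-Q4 0.720 (0.637 to 0.815); Cd74 had 0.839 (0.834 to 0.843), within the fold.

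Migratory DCs had more H2-DMb1 in the tumour library, from 160.0 to 226 CPM (ratio 1.41, 1.17 to 1.70), where all genes gave 12.4% higher and 10.1% lower. Nlrc5 had 1.56 (1.06 to 2.32) there, H2-Ob 1.28 (0.916 to 1.79) and H2-M3 0.753 (0.569 to 0.997). In monocytes, with 15% higher and 11.8% lower, Ifi30 had 0.754 (0.684 to 0.830), Tapbp 1.45 (1.13 to 1.86) and Psmb10 1.30 (1.01 to 1.68). In T cells, with 7.08% higher and 6.09% lower, H2-DMb2 went from 24.5 to 13.8 CPM (0.562, 0.454 to 0.693), and H2-Q4 was lower. Of all T cell class II UMIs, 71.6% and 73.1% lay in 82 and 73 cells, and no H2-DMb2 value without those cells is given here. In neutrophils, with 12.7% higher and 11.7% lower, Ifi30 had 0.588 (0.460 to 0.751), H2-Q7 0.758 (0.595 to 0.967), H2-Q4 0.724 (0.570 to 0.921) and Psmb9 1.29 (1.02 to 1.63).

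Of class I genes in the 3 remaining classes, fibroblasts had the most calls, with 4 lower and 1 higher of 14 compared, where all fibroblast genes gave 12% higher and 11.7% lower. H2-K1 went there from 1256 to 965 CPM (ratio 0.768, 0.714 to 0.826) and H2-D1 from 1745 to 1236 CPM (0.708, 0.665 to 0.754), and the class I total had a ratio of 0.805 (0.779 to 0.832). H2-Q7 had 0.770 (0.572 to 1.04) there, H2-Q4 0.756 (0.517 to 1.11) and H2-M3 1.44 (1.000 to 2.10). NK cells had H2-Q6 at 0.735 (0.587 to 0.915) and H2-T23 at 0.763 (0.565 to 1.02), 2 lower of 13 compared, where all genes gave 10.9% higher and 14.2% lower. Epithelium had H2-Q4 at 0.790 (0.675 to 0.924), 1 lower of 16, where all genes gave 11.8% higher and 7.05% lower. Thinned to 1000 UMIs, an H2-K1 UMI was found in 56.9% and 47.1% of fibroblasts, 74.5% and 74.2% of epithelial cells and 94.1% and 93.0% of T cells.

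H2-Q4 was lower in the tumour library in all 10 classes in which it was compared, past the fold in 8, with ratios from 0.639 to 0.893. In T cells it went from 225 to 158 CPM (ratio 0.702, 0.658 to 0.748), in macrophages from 88.8 to 64.0 CPM and in B cells from 108 to 69.0 CPM (0.639, 0.484 to 0.838). With cells thinned to 1000 UMIs, on few UMIs, it was higher in the tumour library in cDC1, migratory DCs, epithelium and fibroblasts. H2-D1 had a ratio below 1 in 11 of 11 classes, from 0.708 to 0.967, past the fold only in fibroblasts. Of 1366 genes compared in at least 10 classes, 2.56% had a ratio below 1 in every one of them, and 6 (0.439%) were lower past the fold in at least 8, a limit chosen after the values were seen. With 1 library for each tissue, a difference between libraries and a difference between tissues cannot be told apart.

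Ratios between related genes were also compared within each library. H2-K1 UMIs for each H2-D1 UMI were higher in the tumour library in 11 of 11 classes, where H2-D1 alone was lower in all 11. The intervals of the 2 libraries lay apart in only 5 of the 11 classes, among them those named next. In B cells the value went from 0.796 (0.758 to 0.835) to 1.04 (0.978 to 1.10), in cDC2 from 0.582 (0.551 to 0.616) to 0.724 (0.687 to 0.762) and in T cells from 1.07 (1.06 to 1.09) to 1.18 (1.16 to 1.20). Cd74 UMIs for each H2-Ab1 UMI were lower in the tumour library in 10 of 11 classes, with NK cells the exception (from 2.77 to 3.83). Here the intervals lay apart in 9 of the 11 classes. In NK cells they overlapped (2.51 to 3.05 and 3.01 to 4.93), and 1 normal adjacent cell held 45.6% of the class II UMIs. The source of the class II UMIs in T cells, NK cells, neutrophils, epithelium and fibroblasts was not tested. These classes may therefore not be separate observations. Cd74 UMIs for each H2-Ab1 UMI went from 3.49 to 2.99 in macrophages, from 4.08 to 3.22 in migratory DCs and from 5.31 to 4.52 in B cells. Such ratios do not depend on scaling to the class total. They are 2 of 6 pairs, all chosen after the levels were seen. Of the 469965 pairs among 970 genes compared in all 11 classes, 4.59% moved one way in all 11 and 14.2% in at least 10, and pairs that share a gene are not independent.

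**Figure D5:**
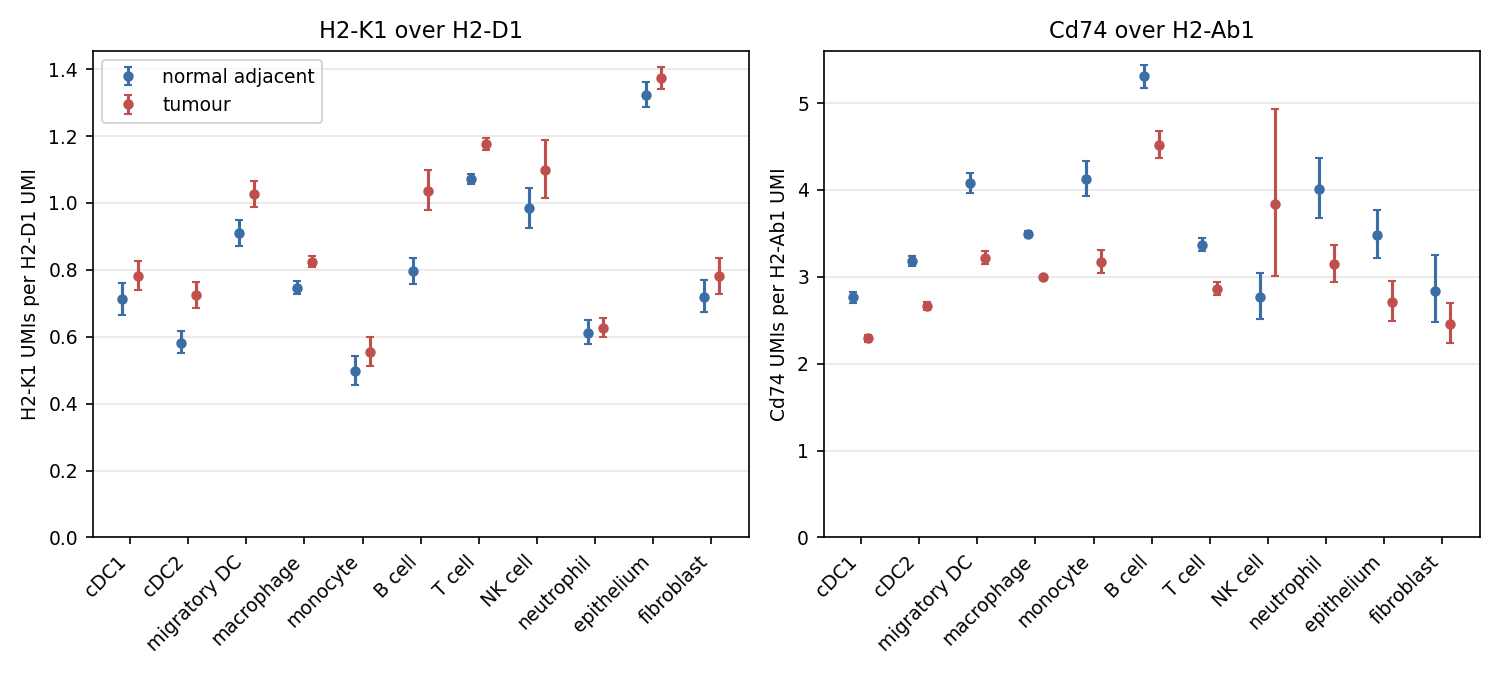
H2-K1 UMIs for each H2-D1 UMI (left) and Cd74 UMIs for each H2-Ab1 UMI (right) in 11 cell classes of the normal adjacent (blue) and tumour (red) library; bars are exact 95% intervals for counting error and both axes start at 0. The tumour point is higher in all 11 classes on the left and lower in 10 of 11 on the right.

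Other genes of the pathways were taken from 3 lists: 16 on the class I side, 19 on the class II side and 6 of interferon gamma signalling, which induces both pathways. H2-T10, H2-Ea and H2-Ea-ps had no symbol in the features used here. The class I side gave 87 comparisons with 5 higher (5.75%) and 7 lower (8.05%), the class II side 100 with 17 higher (17%) and 11 lower (11%), and the interferon gamma side 51 with 3 higher (5.88%) and 10 lower (19.6%), where all genes gave 10.8% and 8.85%.

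On the class I side, Irf1, an interferon-induced transcription factor, was lower in 5 classes. It went from 87.8 to 51.1 CPM in cDC2 (ratio 0.582, 0.429 to 0.786) and from 67.9 to 46.8 CPM in epithelium (0.689, 0.581 to 0.817), and was lower in macrophages (0.797), neutrophils (0.793) and NK cells (0.663, with an interval that includes 1). Calr, a chaperone of heavy chains, was higher in cDC2 (1.37, 1.24 to 1.51), migratory DCs (1.31) and monocytes (1.26). Cd1d1, a lipid-presenting molecule, was higher in migratory DCs (1.65, 1.09 to 2.54), Psme1, a proteasome activator subunit, was higher in neutrophils (1.35, 1.13 to 1.61), and Pdia3 of the loading complex was lower in NK cells (0.786, 0.647 to 0.952).

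On the class II side, Rfx5, a subunit of the X box factor, was scarce, with at most 8.88 CPM in any class, and had a ratio of 0.791 (0.528 to 1.18) in T cells. Rfxap of the same complex was lower in cDC1 (0.673, 0.459 to 0.989) and B cells (0.781, interval including 1). Of the NF-Y subunits Nfya and Nfyb were higher in macrophages (1.30 and 1.40), and Nfya had ratios of 1.27 in T cells and 1.40 in epithelium with intervals that include 1. Creb1 was higher in T cells (1.40, 1.23 to 1.59) and past the fold, with intervals that include 1, in cDC1, cDC2, B cells and neutrophils. Of the endosomal proteases Ctsb was lower in neutrophils (0.682, 0.627 to 0.742) and migratory DCs (0.748) and higher in B cells (1.29) and, with an interval including 1, NK cells (1.32). Ctsd was lower in migratory DCs (0.589, 0.389 to 0.886), Ctsl in macrophages (0.780, 0.732 to 0.831) and neutrophils (0.768), and Lgmn was higher in monocytes (1.40, 1.13 to 1.74) and, with an interval including 1, cDC1 (1.42).

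March1, a ligase that marks class II molecules for turnover, was lower in macrophages (0.717, 0.574 to 0.896). Cd86 was highest in migratory DCs in the normal adjacent library (396 CPM) and in macrophages in the tumour library (380.2 CPM), was lower in T cells (0.764, 0.665 to 0.878), and had a ratio of 1.33 (0.922 to 1.93) in neutrophils. Cd83 was lower in B cells, from 543 to 417 CPM (0.767, 0.685 to 0.858), and Cd80 was higher in macrophages (1.27, 1.01 to 1.61), with ratios whose interval includes 1 for Cd80 in cDC1 (1.36) and Cd40 in T cells (1.31). Cd86 and Cd40 were counted over all gated T cells, including those with 10000 CPM or more of class II genes. The source of both in T cells was not tested.

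In interferon gamma signalling, Ifng was lower in T cells, from 139 to 98.4 CPM (0.707, 0.651 to 0.766), and higher in NK cells, from 223 to 347 CPM (1.56, 1.21 to 2.0). Ifng had a ratio of 0.730 (0.518 to 1.03) in macrophages, where its source was not tested. Its receptor chain gene Ifngr1 was lower in cDC1, from 441 to 300.3 CPM (0.681, 0.598 to 0.774), B cells (0.647) and neutrophils (0.780), and Ifngr2 in migratory DCs (0.773, 0.626 to 0.954). The kinase gene Jak1 was lower in cDC1 (0.677, 0.536 to 0.855), and Jak2 was higher in monocytes (1.67, 1.10 to 2.58) and neutrophils (1.30). Socs1, a feedback inhibitor, was lower in migratory DCs, from 101 to 57.4 CPM (0.567, 0.423 to 0.757), and past the fold with intervals including 1 in neutrophils (0.789) and epithelium (0.741).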

How the data were processed

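The deposited tables hold raw UMI counts for each gene and cell barcode, which, per the file headers, Cell Ranger 4.0.0 produced. R 4.0.3, Seurat 3.2.2 and GRCh38, a human build, are named in the submitters' processing notes, while the features are mouse genes; the mouse build is not given in the sources used here, and no coordinate was taken from the tables. Promoters came from RefSeq on GRCm38.p6, and transcript ends from GENCODE vM21.

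Cells with at least 200 genes and at most 20% mitochondrial UMIs were kept. A class needed at least 3 of its own markers and a minimum level of them, and low levels of most other classes' markers, all per 10000 UMIs of the cell. Markers of migratory DCs did not keep out T, NK or B cells, nor did NK markers keep out T cells. Plasma cell markers did not keep out B cells or pDCs. Markers of cDC1 and cDC2 did not keep out macrophages, migratory DCs or pDCs. No limit was set on monocyte markers, and no doublet caller was run. The genes, markers and lists were chosen with earlier results of these data known. Gate thresholds and the minimum of 40 cells for a ratio were set after seeing the data: 2 versions of the gates were tried, with macrophage-marker limits of 15 and then 20, while levels of Cd74, H2-Aa, H2-K1, B2m and Ciita were in view. UMIs were summed by class and library and divided by the class total, with exact Poisson 95% intervals for levels and exact conditional binomial intervals for ratios. Intervals cover counting error only, and no test between tissues was possible.

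Named genes are each of the 30 in its highest class, up to 4 each way in a class and pathway with the ratio interval farthest from 1, listed pathway genes past the fold, with Rfx5, Irf1 and Cd86 always, and the 10 genes most alike in pattern; some genes under these rules are not reported here. Alternatives were stricter gates (at most 1 UMI of other lineages' markers), 500 genes per cell, thinning, scaling by the median gene ratio, a fold of 1.5 and a minimum of 20 UMIs, and others added later. A summed level across classes counts as moved beyond a tolerance of 5%. Python 3.11.15, NumPy 2.4.6, SciPy 1.17.1 and pandas 2.3.3 were used, and the code was tested on simulated data.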

Additional observations from a re-analysis of the deposited data

How the results depend on the processing

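Values that moved beyond their counting interval are given here as tumour over normal adjacent ratios of the summed level, with (turned) where the side of 1 changed; the cause was not tested. Under stricter gates class II had 0.929 in cDC1 (turned), 1.19 in cDC2, 1.19 in migratory DCs, 0.867 in macrophages, 1.15 in monocytes (turned), 0.906 in B cells, 0.908 in T cells, 0.829 in NK cells, 0.908 in neutrophils, 0.425 in epithelium, 3.59 in fibroblasts, and class I 0.871 in cDC1, 1.05 in cDC2, 0.933 in migratory DCs, 0.918 in macrophages, 0.999 in B cells (turned), 0.897 in T cells, 0.936 in NK cells, 1.04 in neutrophils (turned), 1.05 in epithelium (turned), 0.927 in fibroblasts. Thinned to 1000 UMIs per cell, class II had 0.943 in cDC1 (turned), 1.09 in cDC2, 1.02 in migratory DCs, 0.877 in macrophages, 1.05 in monocytes (turned), 0.873 in B cells, 0.859 in T cells, 0.720 in NK cells, 0.779 in epithelium, 1.28 in fibroblasts, and class I 1.004 in cDC1 (turned), 1.07 in cDC2, 0.888 in macrophages, 1.04 in B cells, 0.907 in T cells, 1.03 in neutrophils (turned), 1.01 in epithelium (turned), 0.756 in fibroblasts. Scaled by the median gene ratio, class II had 1.05 in cDC2, 1.02 in migratory DCs, 0.880 in macrophages, 0.818 in B cells, and class I 0.935 in macrophages, 1.16 in B cells, 0.947 in epithelium. The remaining settings of this kind were chosen after seeing the data. With the median of per-cell levels, class II had 0.950 in cDC1 (turned), 1.05 in cDC2, 1.18 in migratory DCs, 0.902 in macrophages, 0.955 in monocytes, 0.884 in B cells, 0.799 in T cells, 0.908 in NK cells, 0.895 in neutrophils, 0.822 in epithelium, 0.819 in fibroblasts (turned), and class I 0.889 in cDC1, 0.999 in migratory DCs, 0.975 in monocytes (turned), 1.03 in B cells, 0.906 in T cells, 1.03 in neutrophils (turned), 1.06 in epithelium (turned), 0.771 in fibroblasts. With the own-marker level raised by 25%, class II had 0.998 in cDC1 (turned), 1.04 in cDC2, 1.02 in monocytes (turned), 0.812 in B cells, 0.414 in NK cells, 0.976 in neutrophils, 0.453 in epithelium, and class I 0.928 in T cells, 0.928 in NK cells, 0.945 in epithelium. With the macrophage-marker limit of 15, class II had 1.05 in migratory DCs, 0.954 in monocytes, 0.877 in T cells, 1.02 in neutrophils (turned), 0.846 in epithelium. Without cells at 10000 CPM or more, class II had 0.823 in T cells, 0.873 in NK cells, 1.04 in epithelium (turned), 0.857 in fibroblasts (turned). With at least 500 genes per cell all 26 values compared stayed within their tolerance.

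At a fold of 1.5 the class II genes higher numbered 6, and class I had 1 higher and 1 lower. Thinned, class II had 6 higher and 7 lower. At a minimum of 20 UMIs class I had 16 higher. Under stricter gates 11 of 27 class I and 14 of 30 class II calls stayed past the fold, with 10 and 12 under the UMI minimum. Of the class I calls 2 changed direction. Thinned, 7 of 27 and 4 of 30 stayed past it, with 19 and 22 under the minimum. With own markers raised by 25% these were 25 and 27, and with the macrophage-marker limit of 15 they were 25 and 26. Under stricter gates the presenting classes held 39.4 and 34.3 times the median of the low classes, and the range of class I was 3.26 times in the normal adjacent library. Thinned to 2000 UMIs, 49.5% and 47.3% of T cells had an H2-Aa UMI. No paired analysis was possible because each tissue has 1 library.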

Other observations

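Among H2 genes outside the 30, singled out after their values were seen, H2-M2 stood at 107 and 146 CPM in migratory DCs and 35.9 and 23.3 CPM in macrophages, and at 0 and 0.681 CPM in cDC2. H2-Q10 stood at 257 and 299.6 CPM in neutrophils, against 39.5 and 33.0 CPM in T cells. The other genes that, like H2-Q4, were lower past the fold in the tumour library in at least 8 classes were Rpl9 (10 of 11 classes, median ratio 0.733), Rps27 (8, 0.743), Ubb (8, 0.786), 2410006H16Rik (8, 0.766) and Mt1 (9, 0.700).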
